A study of Brassica carinata and Brassica napus and Brassica carinata x Brassica napus with 3 samples.

Results

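RNA-seq of floral buds from an interspecific hybrid of Brassica carinata and Brassica napus was compared with that of its parent B. napus. B. napus, oilseed rape, was represented by the cultivar Zhongshuang 11, and B. carinata, Ethiopian mustard, by the cultivar W29, whose library is used here only for a few side values. Buds were taken at the initial flowering stage in each group, and total RNA was sequenced as 1 library per group. The labels name no treatment and no age, and the direction of the cross, the generation of the hybrid and the number of plants in each library are unstated in the sources. With 1 library on each side no difference below has a replicate check, so every value compares these libraries and no test was possible.

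The assembled sequences carry protein annotations, and those that share the same best Swiss-Prot protein, with a Swiss-Prot score at least 0.6 of the Nr score, were summed into 1 unit. Of 10526 such units, 8089 reached 5 RPKM (reads per kilobase of sequence and per 1000000 library reads) in the hybrid or in B. napus, and these are described. In the whole series, with B. carinata added, 8510 units reached that level. A unit is called higher or lower when the log2 ratio of hybrid over B. napus, taken after adding 1 RPKM to each side, is at least 1 in size, which is 2-fold. At the edge of the level chosen, PAL3, a phenylalanine ammonia-lyase, was just inside with 3.48 RPKM in the hybrid and 5.01 in B. napus, and CLE40, a signalling peptide, was just outside with 3.10 and 4.99.

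A flower bud holds sepals, petals, stamens and a gynoecium at once, and its RNA is a mixture of them. In the anther, the tapetum feeds the developing microspores, makes the sporopollenin precursors of the outer pollen wall and later deposits the lipid-rich pollen coat. Pollen grains switch on their own late genes as they ripen, for pectin-modifying enzymes, proton pumps, actin-binding proteins and secreted peptides that serve tube growth. Oilseed rape and Ethiopian mustard are both allopolyploids that share the C genome, so a hybrid carries near-identical gene copies from several sources. In bulk buds, fewer cells of a type and less RNA per cell cannot be told apart.

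The hybrid library held 27.1 M counted reads (M, 1000000 reads) and the B. napus library 28.2 M, of which 62.7% and 64.0% fell in units. A count of 0 allows up to 0.111 reads per M in the hybrid and 0.106 in B. napus. Intervals of read ratios given below are exact conditional binomial intervals (95%) and cover counting error only. The floral organ identity genes that define the tissue were read in both libraries. The petal and stamen gene AP3 had 251.5 RPKM in the hybrid and 196 in B. napus, its partner PI 312 and 191, and the carpel and stamen gene AG, as its B. napus entry, 96.3 and 92.9. The tapetal protein A9 had 853 and 729 RPKM. Both libraries thus held the transcripts that the bud label calls for.

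Most units were close to each other in the libraries. The median log2 ratio of the 8089 units was 0.01, with quartiles of -0.39 and 0.40, and 6748 units, 83.4%, were within 2-fold. In the hybrid 688 units, 8.51%, were at least 2-fold higher and 653 units, 8.07%, at least 2-fold lower. These shares are the background for every family count below. Large differences were fewer, with 214 units at least 4-fold higher and 220 lower, and 48 units at least 16-fold higher and 65 lower. Among units of 100 RPKM or more in the higher library, 8.52% were higher and 7.87% lower, so the shares were much the same at high levels.

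**Figure D1:**
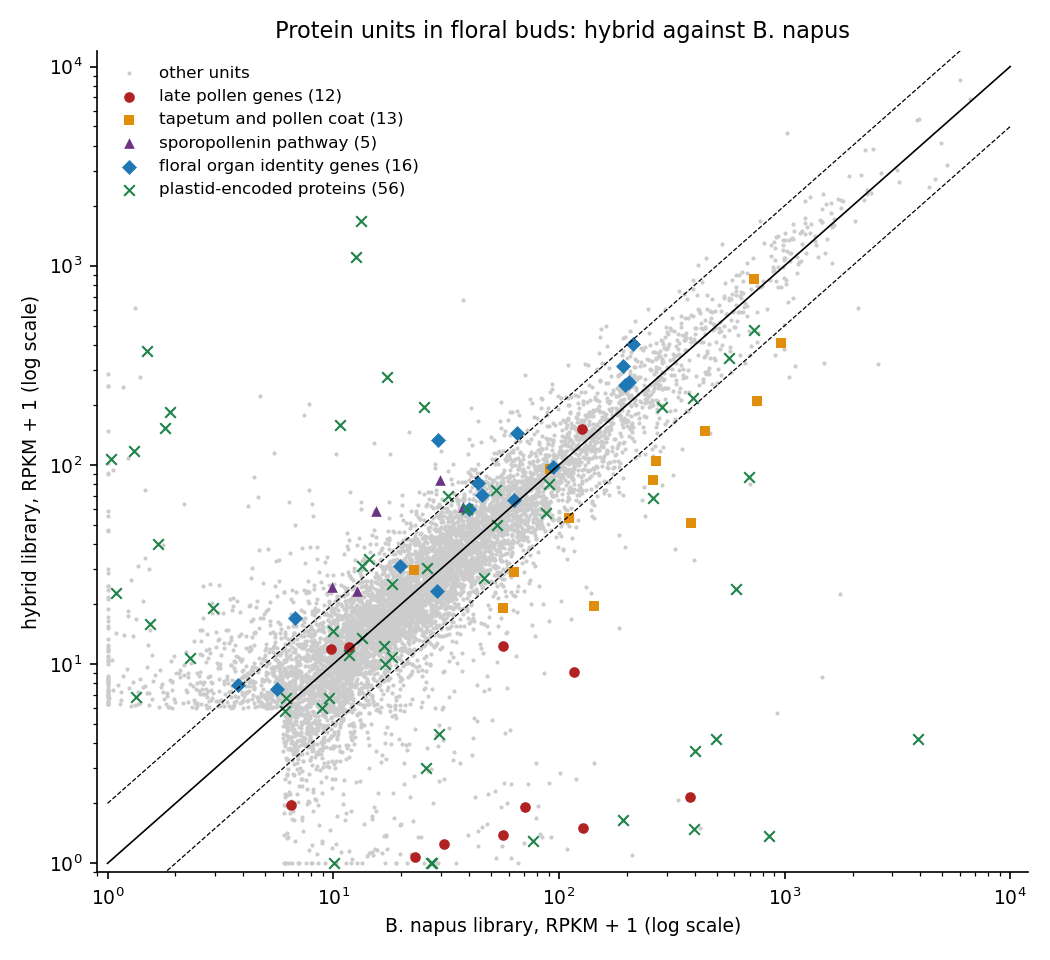
Each point is 1 of the 8089 units, with RPKM + 1 in the B. napus library on the x axis and in the hybrid library on the y axis, both on log scales, with lines at equality and at 2-fold. Late pollen genes (red circles) lie far below the lower line for 9 of 12 units, and plastid-encoded proteins (green crosses) scatter to both sides.

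The share of units apart differed with how a unit is built. Units of a single assembled sequence were higher in 22.6% and lower in 23.3% of 412 cases, while units of 5 or more sequences were higher in 6.90% and lower in 5.02% of 4956. Units whose best hit is an Arabidopsis thaliana protein were higher in 7.66% and lower in 7.43%, against 18.2% and 15.4% for hits of other species. Sequences without any B. napus read made up 6.9% of the hybrid's summed RPKM, and sequences without any hybrid read 0.6% of that of B. napus. For 201 of the 688 higher units, over 50% of the hybrid level came from sequences with no B. napus read, and for 49 of the 653 lower units the same held the other way. Whether such sequences are copies from the other parent was not tested. Restricted to sequences with a read in both libraries, 348 units were higher and 713 lower of 7778.

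Late pollen genes stood far lower in the hybrid. Of 12 measured units, 9 were at least 2-fold lower and 0 higher, with a median log2 ratio of -4.04, beside 0.01 over all units. Over the alternative settings that median ran from -4.96 with a pseudocount of 0.1 to -2.20 at a minimum of 1 RPKM. PME5, also known as VANGUARD1, a pectin methylesterase of the pollen tube, had 1.16 RPKM in the hybrid and 382 in B. napus, from 20 and 8143 reads. The read ratio was 0.00256 (interval 0.00156 to 0.00396). PPME1, the pollen pectin methylesterase, had 0.504 and 127 RPKM. The proton pumps of pollen followed, with AHA6 at 0.385 and 55.5 RPKM and AHA9 at 0.907 and 69.95. In the hybrid each of these 4 units thus had 35 reads or fewer.

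Pollen actin regulators and surface proteins behaved alike. PRO4, a pollen profilin, had 2 reads in the hybrid and 296 in B. napus, and ADF7, a pollen actin-depolymerizing factor, had 0.0747 and 21.99 RPKM, the latter from 1 hybrid read with a read ratio of 0.00260 (interval 6.57e-05 to 0.0146). The pollen arabinogalactan proteins AGP11 and AGP6 had 8.14 and 11.3 RPKM in the hybrid against 115 and 55.4. AKT6, the pollen potassium channel also called SPIK, had 0.962 and 5.51 RPKM, and its log2 ratio of -1.73 turned to 0.13 when any Swiss-Prot hit was accepted. The exceptions were 3 units within 2-fold, which belong to the same list of late pollen genes. The unit matched to profilin PRO5 had 149.7 RPKM in the hybrid and 126 in B. napus, the calcium-dependent kinase CPK17 10.9 and 8.74, and the receptor-like kinase At4g39110, known as BUPS1, 11.2 and 10.7.

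**Figure D2:**
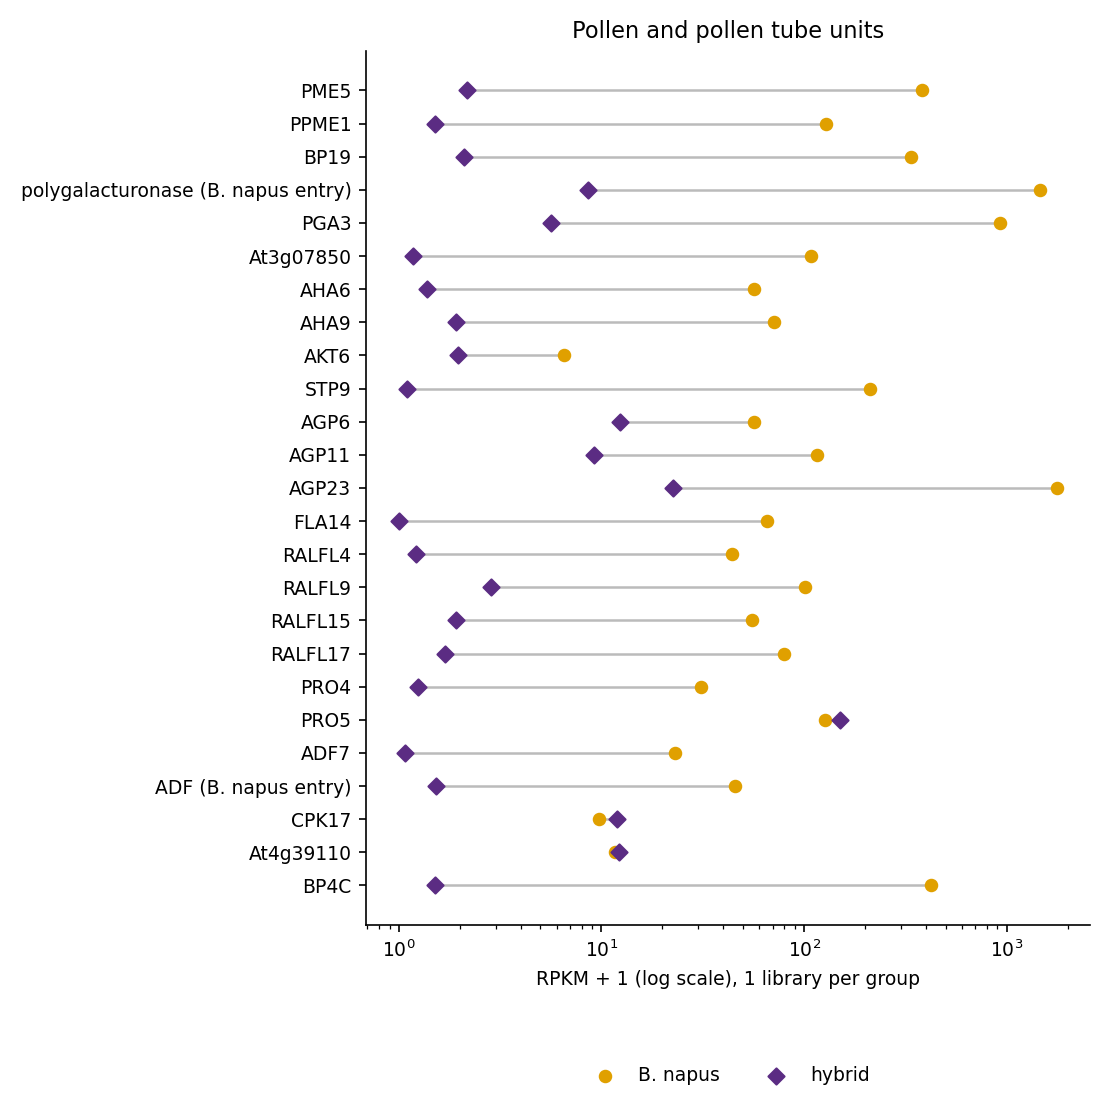
RPKM + 1 on a log scale for 25 pollen and pollen tube units, with the hybrid library as purple diamonds and the B. napus library as yellow circles joined by a grey line. In 22 units the hybrid lies to the left, while PRO5, CPK17 and At4g39110 lie together.

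Polygalacturonases, which cut pectin, were lower in 4 of 8 units and higher in 0. The B. napus polygalacturonase entry had 7.61 RPKM in the hybrid and 1466 in B. napus (132 and 44783 reads), PGA3 4.65 and 927.5, and At3g07850 0.179 and 108. The other 4 units were within 2-fold, among them the unit with a grapevine hit at 151.5 and 205 RPKM, and the family median was -0.82, or -3.48 at a minimum of 20 RPKM. Pectinesterases, which include PME5 and PPME1, were lower in 8, higher in 3 and within 2-fold in 16 of 27 units, with a median of -0.11. Pectate lyases were lower in 2, higher in 1 and within 2-fold in 10 of 13. BP19, cloned from rape pollen, had 1.09 and 337 RPKM, and PME49 0.261 and 69.0, whereas PME3 had 92.6 and 134. BP4C, another product cloned from rape microspores, had 0.501 and 422 RPKM, a log2 ratio of -8.14.

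Arabinogalactan proteins, which coat the cell surface, were lower in 10 and higher in 6 of 39 units. AGP23, a pollen peptide, had 21.6 RPKM in the hybrid and 1766 in B. napus. FLA14, a fasciclin-like member, had 0 hybrid reads and 1987 B. napus reads, so that it was at least 635-fold lower when 0 is set to 3 reads per library. FLA5 had 1.51 and 72.3 RPKM. On the other side AGP9 had 433.5 RPKM in the hybrid and 191 in B. napus, though a log2 ratio of 0.86 by reads without length, and AGP1 474 and 311.5. Over all 39 units the log2 ratios ran from -6.29 to 3.57.

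RALF-like peptides are short secreted signals, some of which keep the growing pollen tube wall intact. They were lower in 6 and higher in 0 of 14 units, with a median of -0.61, or -1.50 at a minimum of 1 RPKM. RALFL4 had 0.216 RPKM in the hybrid and 42.8 in B. napus, RALFL9 1.84 and 99.8, RALFL15 0.915 and 54.2, and RALFL17 0.689 and 78.3. RALFL34 and RALFL33, which other tissues express, had 132 and 69.9 RPKM in the hybrid against 93.1 and 77.5. Tetraspanins, membrane organisers, were lower in 2 and higher in 1 of 12. TET15 had 0.225 and 54.7 RPKM and TET11 0.998 and 58.2. TET20 stood higher with 8.41 and 0.214, but its log2 ratio of 2.95 came to 0.27 when any Swiss-Prot hit was accepted. TET7, of high level, had 52.8 and 55.1.

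Profilins and actin-depolymerizing factors were lower in 6 and higher in 3 of 16 units. The actin-depolymerizing factor entry of B. napus had 0.530 RPKM in the hybrid and 44.4 in B. napus, and PRO3 1.24 and 47.3, while ADF4 had 379 and 335.5 and PRO1 594 and 416. ADF1 was higher with 86.1 and 3.48 RPKM. Of 10 actins 4 were lower, among them the reproductive ACT12 with 0.271 and 7.88 RPKM and ACT3 with 31.2 and 75.7. Villins, fimbrins and formins, which bundle or nucleate actin, were higher in 4, lower in 1 and within 2-fold in 17 of 22. The vegetative ACT7 had 729.5 and 650.5 RPKM. Plasma membrane proton pumps other than AHA6 and AHA9 were within 2-fold, and the vegetative AHA2 had 129 and 156 RPKM. Tubulins were higher in 3 and lower in 1 of 21 units, and kinesins in 0 and 0 of 11.

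Sugar transporters were lower in 10 and higher in 3 of 38 units, with a median of -0.43. STP9, a glucose importer of pollen, had 0.0949 RPKM in the hybrid and 209.8 in B. napus, from 5 and 9750 reads. STP6 had 170 and 1324 reads, and STP2, an early microspore importer, 3.42 and 27.6 RPKM. EDL16_ARATH, an ERD6-like transporter, stood on the other side with 6.73 and 0.460 RPKM. Of its hybrid level, 74.5% came from sequences with no B. napus read. Of 5 invertases 2 were lower, and CWINV4, the cell wall invertase of nectaries, had 3.67 and 59.95 RPKM. CRC, the nectary and carpel regulator, had 236 and 189. Purple acid phosphatases were lower in 6 and higher in 1 of 20, led by PAP5 with 2.18 and 78.0 RPKM, PAP25 with 1.65 and 30.1 and PAP6 with 14.2 and 184.

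Expansins loosen cell walls, and 4 of 16 were lower and 1 higher. EXPA5 had 6.58 RPKM in the hybrid and 58.0 in B. napus and EXPA10 15.4 and 89.8, while EXPA6 had 285 and 447. Extensins, structural wall proteins, were lower in 7 and higher in 2 of 17 units, with a median of -0.82. EXT3 had 202 and 732 RPKM, and LRX7 0.169 and 14.6. In other families, single units of 80 RPKM or more in B. napus stood far lower. Xyloglucan endotransglucosylases as a family were higher in 2 and lower in 5 of 16, with a median of -0.04. Polyadenylate-binding proteins were higher in 0 and lower in 3 of 11, with a median of 0.25. Vacuolar proton pump subunits were higher in 3 and lower in 1 of 19, with a median of -0.15. XTH3, which remodels xyloglucan, had 1.65 RPKM in the hybrid and 118 in B. napus, PAB5, a poly(A)-binding protein of reproductive tissue, 32.4 and 395, and VHA-G3, a subunit of the vacuolar proton pump, 0.931 and 80.2.

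Sporopollenin genes stood on the opposite side from late pollen genes. Of 5 measured units 3 were at least 2-fold higher in the hybrid and 0 lower, with a median of 1.31. 4CLL1, known as ACOS5, the acyl-CoA synthetase that starts the pathway, had 57.4 RPKM in the hybrid and 14.5 in B. napus, with a read ratio of 5.19 (interval 4.58 to 5.90), but a log2 ratio of 0.74 by its highest sequence alone. ABCG26, the exporter of the precursors, had 82.9 and 28.7 RPKM, and TKPR2, a tetraketide reductase, 23.4 and 8.83. TKPR1 had 22.2 and 11.7 and FAR2, known as MS2, 60.2 and 36.5. The difference was smaller by reads without length, with a family median of 0.75, and ABCG26 then fell inside 2-fold with a log2 ratio of 0.72.

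Tapetum and pollen coat units were lower in 10 of 13 cases and higher in 0, with a median of -1.36, or -2.28 by the highest sequence of each unit. The median of all units by the highest sequence was -0.37. The coat lipases EXL4 and EXL6 had 50.2 and 104 RPKM in the hybrid against 383 and 268. GRP17, the coat oleosin, had 18.6 and 141.5 RPKM, and the rape coat oleosins followed, with OlnB1 at 409 and 964, OlnB2 at 209 and 755.5 and OlnB4 at 148 and 442. TSM1, a tapetal methyltransferase, had 53.0 and 110.3 RPKM, a log2 ratio of -1.05 that came inside 2-fold at -0.98 with TMM factors. The 3 units within 2-fold were OlnB3 with 94.7 and 89.98 RPKM, A9 with 853 and 729 and AMS, the tapetal master regulator, with 28.6 and 21.8. A9 and AMS, tapetal markers of earlier stages, were thus level, while the tapetal TSM1 and the coat products other than OlnB3 were lower. Whether stage plays a part in this was not tested.

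**Figure D3:**
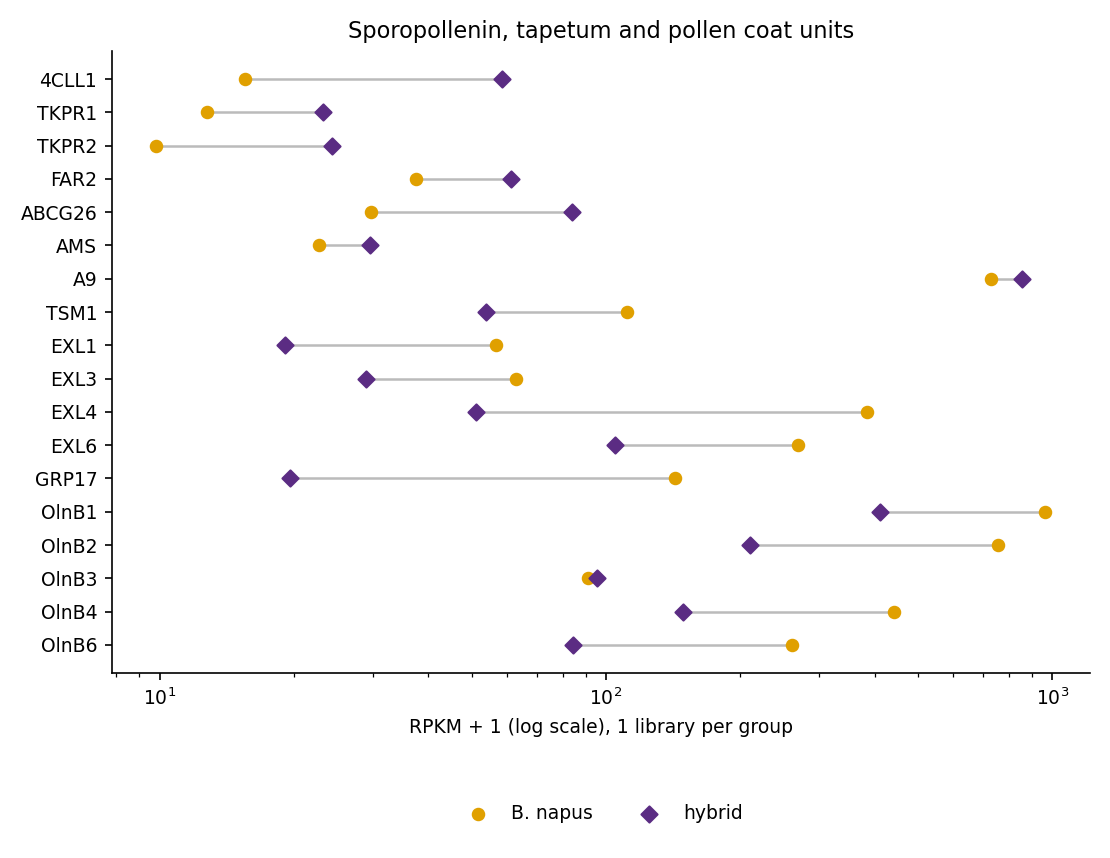
RPKM + 1 on a log scale for the 5 sporopollenin units, at the top, and the 13 tapetum and pollen coat units, with the hybrid library as purple diamonds and the B. napus library as yellow circles. The hybrid lies to the right in the sporopollenin units and to the left in 10 of the other 13.

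Oleosins as a family, which share GRP17 and the OlnB proteins with that list, were lower in 9 of 10 units, and the exception was OlnB3. Non-specific lipid-transfer proteins, small carriers that are abundant in the anther and epidermis, were lower in 7 and higher in 2 of 16 units, with a median of -0.87. LTP11 had 79.7 RPKM in the hybrid and 703.7 in B. napus. The 2 members of highest level differed less, with LTP12, an anther form, at 3211 and 5243 RPKM and LTP6 at 5424 and 3951. LTP2 as its B. napus entry stood higher with 23.7 and 1.64 RPKM. GDSL esterases, the lipase family of the EXL proteins, were lower in 12 and higher in 3 of 52, and GDL90_ARATH had 0 and 216 reads.

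Most units of small secreted defence-type proteins were also lower. Defensin-like proteins, cysteine-rich peptides many of which are made in pollen and pistils, were lower in 14 and higher in 2 of 22 units. The median log2 ratio was -2.65, or -2.37 when units with 0 reads are set to 3. It ran from -5.41 with a pseudocount of 0.1 to -1.26 with one of 5, and was -1.79 by reads without length. SCRL23 had 0.635 RPKM in the hybrid and 190.5 in B. napus, SCRL12 0.400 and 81.8, LCR1 0.0613 and 60.4 and SCRL24 0.0616 and 51.5. On the other side PDF2.2, the member of highest level, had 4663 and 1023 RPKM, with a read ratio of 3.71 (interval 3.66 to 3.77). With it, the family sum was higher in the hybrid, at 8766 RPKM against 7429 in B. napus. Another unit with the product name of PDF2.2, Defensin-like protein 2, was lower at a log2 ratio of -5.49. ATTI6 had 2486 and 4367.

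Pathogenesis-related proteins and chitinases, markers of salicylic acid responses and of wounding, were lower in 8 of 10 units and higher in 0, with a median of -1.84, or -0.78 with a Swiss-Prot score of at least 0.8 of the Nr score. PR5 had 321 RPKM in the hybrid and 2584 in B. napus, and PR1 8.22 and 36.4. WRKY factors, regulators of such responses, were lower in 10 and higher in 3 of 34, but with a median of -0.16. WRKY42 and WRKY31 had 0.363 and 0.359 RPKM against 23.4 and 22.8, and WRKY34, a pollen member, 0.395 and 5.05, which came inside 2-fold at -0.90 with a pseudocount of 5. S-locus glycoproteins and receptor kinases, the family of the self-recognition receptor, were lower in 7 and higher in 0 of 20, with RLK1 at 1.64 and 8.84 RPKM. SLSG3_BRAOL had 95.1 and 65.4 RPKM but 1633 and 2524 reads, a log2 ratio of -0.56 by reads without length, and 69.5% of its hybrid level came from sequences with no B. napus read.

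Of 16 floral organ identity units 4 were at least 2-fold higher in the hybrid and 0 lower, with a median of 0.64 and a lowest log2 ratio of -0.31, that of AGL5. AGL3, a SEPALLATA-type factor also called SEP4, had 132.5 RPKM in the hybrid and 28.1 in B. napus, with a read ratio of 7.70 (interval 7.13 to 8.33). SEP1 had 143 and 63.9 RPKM, but a log2 ratio of 0.72 by its highest sequence alone. The AP1 unit with a Sinapis alba hit had 15.96 and 5.78, and the AG unit with an Arabidopsis hit 6.87 and 2.79, from 59 and 25 reads and with a log2 ratio of 0.75 by reads without length, while the AP1A entry had 65.4 and 62.4. With sequences read in both libraries only, that AP1 unit had a log2 ratio of -0.38. SEP2 and the AGL9 homolog, of high level, had 259 and 404 RPKM against 203 and 211. Among other MADS-box factors SVP, a repressor of the floral transition, had 8.25 and 29.95.

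Carpel and ovule genes stood within 2-fold in 8 of 8 units. AGL1 and AGL5, the SHATTERPROOF pair, had 69.99 and 22.2 RPKM in the hybrid against 44.7 and 27.8, AGL11, the ovule identity gene STK, 59.2 and 39.0, and SPT 20.9 and 14.4. Meiosis genes were within 2-fold in 12 of 13, with a median of 0.52 that was -0.09 by the highest sequence of each unit. Under that setting the median of all units was -0.37. DMC1 as its Glycine max entry, the strand exchange protein, had 26.7 and 14.8 RPKM, the synaptonemal complex protein ZYP1A 17.7 and 12.03, MSH4 38.4 and 50.5, and DYAD 19.04 and 24.1. MRE11, a double-strand break nuclease with roles outside meiosis, was the 1 higher member with 9.40 and 2.90 RPKM. Its log2 ratio of 1.41 came inside 2-fold by reads without length at 0.79. Sequences with no B. napus read made up 86.3% of its hybrid level.

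YABBY and growth-regulating factors, which set organ polarity and cell number, were higher in 4 and lower in 0 of 13, with a median of 0.62. YAB3 had 24.3 RPKM in the hybrid and 1.86 in B. napus, YAB1 125 and 40.1, GRF3 51.9 and 19.4 and GRF5 55.7 and 23.7. Of these calls 3 ended under an alternative: YAB3 came to 0.67 when any Swiss-Prot hit was accepted, and GRF3 and GRF5 to 0.52 each by their highest sequence. Squamosa promoter-binding-like proteins were higher in 2 and lower in 0 of 15, among them SPL8, which acts in anther development, with 92.1 and 31.2 and a log2 ratio of 0.92 by its highest sequence. Homeobox factors were higher in 7 and lower in 5 of 53, which is 13.2% and 9.43%. The meristem gene STM was split by best hit, with 0 B. napus reads and 176 hybrid reads under the Arabidopsis entry and 48.7 and 62.8 RPKM under the B. oleracea entry.

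DNA methylation and silencing genes were higher in 8 and lower in 1 of 30 units, with a median of 0.71. CMT3, the CHG methyltransferase, had 16.1 RPKM in the hybrid and 1.66 in B. napus, though from 198 and 13 reads, and DRM2, the de novo methyltransferase, 34.8 and 10.2. The Argonaute proteins AGO5, AGO9, AGO10 and AGO7 had 100.5, 65.3, 81.1 and 61.2 RPKM in the hybrid against 42.7, 26.8, 37.2 and 28.6. DMT1, known as MET1, the maintenance methyltransferase, had 63.0 and 28.4, and AGO1 138 and 119. DCL2, an antiviral Dicer, was the lower unit with 3.16 and 11.1. The family median was 0.45 by reads without length and 0.09 by the highest sequence of each unit. The median of all units under these settings was -0.05 and -0.37. Inside 2-fold came DMT1, AGO5, AGO10 and AGO7 by reads without length, at 0.39, 0.85, 0.58 and 0.80, DRM2 at 0.63 when any Swiss-Prot hit was accepted, AGO9 at 0.66 with sequences read in both libraries, and DCL2 at -0.98 with a pseudocount of 5.

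Histones, the proteins of nucleosomes, were higher in 5 and lower in 0 of 32 units. Their median was 0.55 by RPKM and 0.54 by reads per M without length, and ran from 0.13 to 0.62 over the alternative settings. H2A7_ARATH, a heterochromatic H2A, had 1675 RPKM in the hybrid and 775 in B. napus, with a log2 ratio of -0.49 by its highest sequence alone, and H32_TOBAC, a replication-type H3, 3826 and 2269. Cyclins and cyclin-dependent kinases were higher in 8 and lower in 1 of 55, with a median of 0.28. By reads without length 5 were higher and 1 lower, and the median ran from -0.14 to 0.34 over the alternative settings. CYCA2-3 had 99.9 and 27.2 RPKM, and SMR1, an inhibitor of the cycle, 14.9 and 45.6. CKS1, a kinase subunit, had 183 and 59.9, but a log2 ratio of -0.23 by its highest sequence alone. B3 domain proteins, many of them expressed in reproductive meristems, were higher in 10 and lower in 2 of 37, with REM17 at 13.9 and 2.36 RPKM and REM14 at 19.6 and 5.63, the latter inside 2-fold at 0.65 when any Swiss-Prot hit was accepted. F-box proteins, substrate adaptors for ubiquitination, were higher in 26 and lower in 2 of 215, a share of higher units of 12.1% beside 8.51% over all units.

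Genes of gibberellin, a hormone of stamen and petal growth, were higher in 8 and lower in 3 of 21. By reads without length 4 were higher and 3 lower. The DELLA repressors GAI, RGL2 and RGA1 had 22.1, 22.9 and 41.6 RPKM in the hybrid against 5.06, 7.24 and 16.2, while RGA2 had 59.6 and 61.4. GASA10 had 7.66 and 1.09 RPKM, and GASA1 was lower with 61.8 and 142. The GASA members of highest level, GASA14 and GASA4, had 509.5 and 356.5 RPKM against 481 and 295. DELLA genes with a B. rapa or Arabidopsis best hit were counted apart, and the RGA1 and RGA2 units lay on different sides of 2-fold.

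Cytosolic ribosomal proteins were higher in 18 and lower in 1 of 158, a share of 11.4% higher, with a median of 0.17. The largest differences were in single units, such as RPS14C with 2522 and 0 reads, and RPL3 as its rice entry with 219.9 and 3.72 RPKM. RPL41, the ribosomal unit of highest level in both libraries, had 4124 and 4943 RPKM. Light-harvesting proteins were lower in 4 and higher in 3 of 19, and photosystem subunits grouped as nuclear lower in 4 and higher in 2 of 30, with medians of -0.38 and -0.31. The psaJ unit, 1 of these 2 higher photosystem units with 29.9 and 12.4 RPKM, is plastid-encoded and also counts among the plastid-encoded proteins below. Oxygen-evolving enhancer protein 1 had units on both sides, at log2 ratios of 3.38 and -1.95. CAB36 had 383 RPKM in the hybrid and 992 in B. napus, and CB21_SINAL, of highest level, 1157 and 1507.

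Plastid-encoded proteins were apart more often than other units, with 19 higher and 15 lower of 56, which is 33.9% and 26.8% beside 8.51% and 8.07%. The shares over all units of a single sequence were nearer, at 22.6% and 23.3%, and over hits of species other than Arabidopsis thaliana 18.2% and 15.4%. The chloroplast keeps a small genome of its own for photosystem, ATP synthase, ribosome and RNA polymerase subunits. RPS3 of the plastid had 3.20 RPKM in the hybrid and 3890 in B. napus, and ndhA of the NDH complex 0.369 and 855 under its main entry. On the other side rpoA, an RNA polymerase subunit, had 1104 and 11.6 RPKM, ndhC 374 and 0.501, and ndhK 106 and 0.0367. Each unit named here rests on a single sequence with a best hit outside Arabidopsis thaliana. How much of the plastid shares comes with that was not tested.

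Several of these genes were split between entries of different species that stood on opposite sides, a pattern picked out after the values were seen. matK, the intron maturase, had 1679 RPKM in the hybrid and 12.3 in B. napus under the Sinapis alba entry, and 0.297 and 75.5 under the B. rapa entry. atpA of ATP synthase had 184 and 0.894 under the Arabis hirsuta entry and 3.45 and 28.5 under the Arabidopsis entry. For psbB the values were 22.9 and 606 under the Lobularia maritima entry and 18.1 and 1.94 under the Arabis hirsuta entry. Summed by gene, 36 plastid genes were measured, with 12 higher, 8 lower and a median of -0.12. The sums of rps3, ndhA and rpl2 stayed low in the hybrid and those of rpoA, ndhC and ndhK high, while psbC with 80.2 and 89.6 RPKM, rpoB with 49.97 and 53.3 and accD with 12.5 and 12.5 were level.

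**Figure D4:**
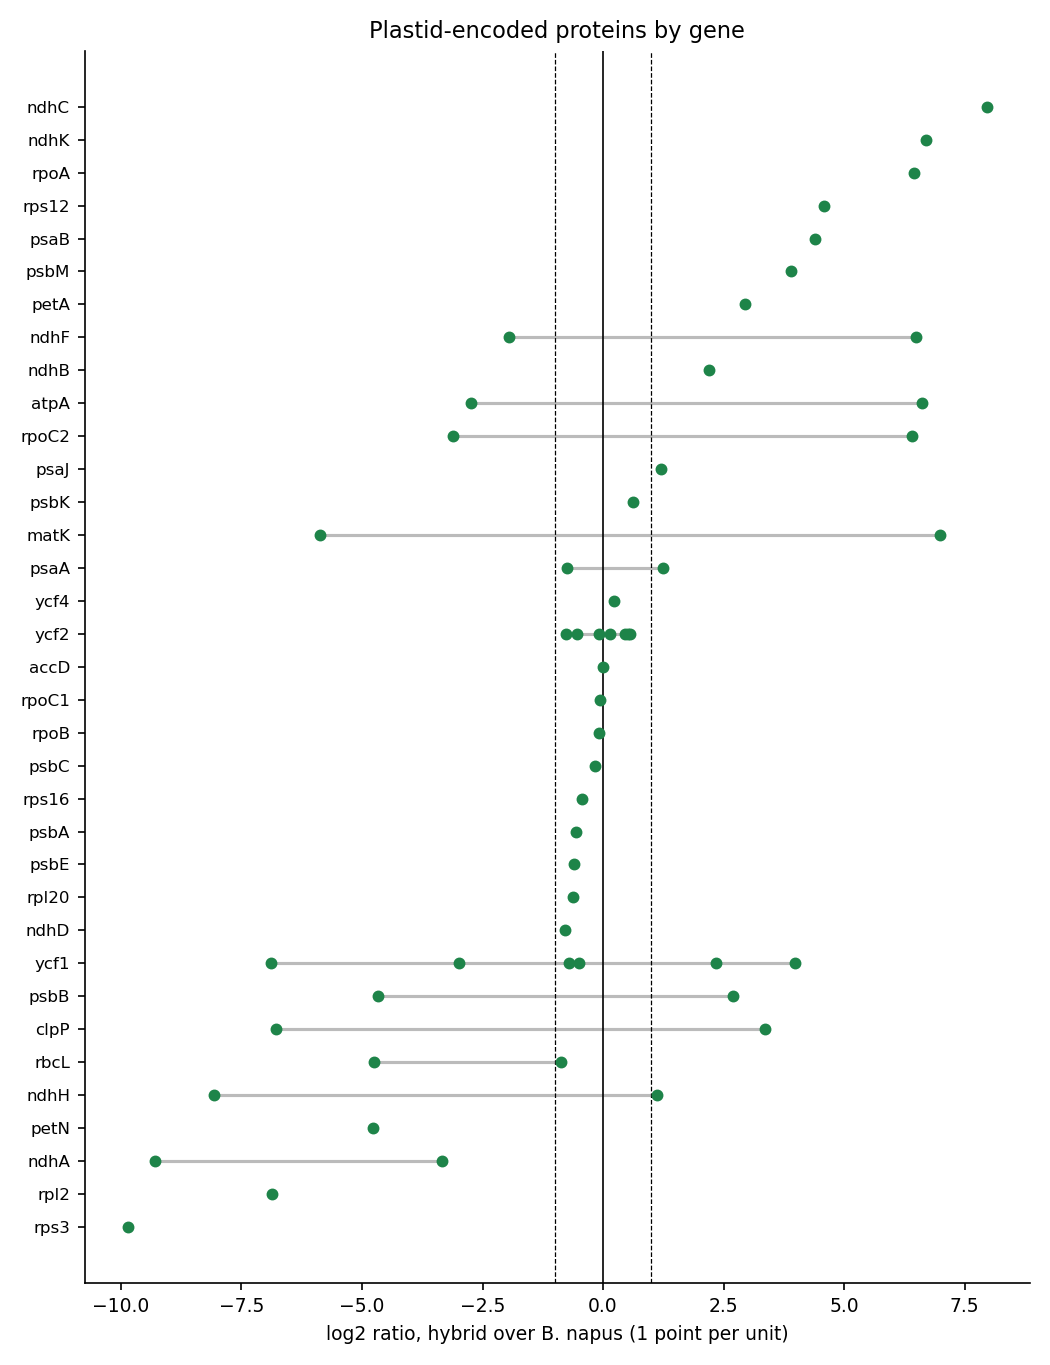
Log2 ratio of hybrid over B. napus for each unit of plastid-encoded proteins, 1 row per gene and 1 point per unit, with units of a gene joined by a grey line and dashed lines at 2-fold. Units of matK, atpA, rpoC2, ndhF, psbB, clpP, ndhH, ycf1, psaA and ycf2 lie on both sides of 0.

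Mitochondrially encoded proteins were higher in 9 and lower in 1 of 24 units, with a median of 0.65. ND5 and ND4, subunits of complex I, had 206 and 191 RPKM in the hybrid against 54.6 and 39.7, and COX3 and COX1 of cytochrome oxidase 37.6 and 20.2 against 6.91 and 2.50. ND5 came inside 2-fold at 0.70 with a Swiss-Prot score of at least 0.8 of the Nr score. AtMg00440 had 274.5 and 0.398 RPKM from 1 sequence, and ribosomal RPS3 of the mitochondrion 79.6 and 62.2. Pentatricopeptide repeat proteins, nuclear factors that process organelle RNA, were higher in 4 and lower in 11 of 317, which is below the background on either side, and their median was -0.22.

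The highest ratios among units of at least 20 RPKM are given next. MT25_BRAJU, a metallothionein, had 615 RPKM in the hybrid and 0.327 in B. napus, while MT2_BRARA, of much higher level, had 6863 and 6606. Thioredoxin TRXH_BRARA, of 1 sequence, had 5434 and 0 reads, at least 1888-fold higher with 0 set to 3 reads. U496C_ARATH, of 2 sequences, had 9274 and 0, at least 3222-fold higher. These bounds hold for the sequences of the unit and not for all copies of a gene. Glutaredoxins and thioredoxins as a family were higher in 5 and lower in 7 of 59 units, with a median of -0.04. The S-adenosylmethionine synthase METK4_BRAJU, of 3 sequences, had 1543 and 0 reads and the enolase ENO1_HEVBR, of 1 sequence, 955 and 0. Whether B. napus reads of the same genes fell in units with other best hits was not tested. Another unit with the product name of METK4_BRAJU, S-adenosylmethionine synthase 4, was lower in the hybrid, at a log2 ratio of -2.09. EF1A4_ARATH, an elongation factor and the unit of highest level in the hybrid, had 8557 and 5976 RPKM, a log2 ratio of 0.52.

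Glucosinolate genes, the mustard oil pathway of Brassicaceae, were lower in 3 and higher in 2 of 22. NSP1, which steers breakdown to nitriles, had 0.447 RPKM in the hybrid and 42.8 in B. napus. Of that B. napus level, 96.7% came from sequences with no hybrid read. MAM1, the chain elongation enzyme, had 0.288 and 7.92 RPKM and CYP83A1 2.51 and 15.5. MYRA_SINAL, a myrosinase, had 13.8 and 0.535, and the main rape myrosinase MYRO_BRANA 207 and 274. MYB factors were lower in 4 and higher in 1 of 20, and MYB46, a switch of secondary walls, had 0.387 and 16.1.

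Over the 102 families with 4 or more measured units, 56 medians lay below 0 and 45 above. At least 0.5 below 0 were 17 medians, 6 of them at least 1 below, and at least 0.5 above were 9, 1 of them at least 1 above. Families share units, so these counts are not of separate genes. The cell type lists moved differently, with summed levels in the hybrid and B. napus of 195 and 1008 RPKM for late pollen, 2098 and 4284 for tapetum and pollen coat, 246 and 100.3 for sporopollenin, 214 and 191 for meiosis and 639 and 510.5 for gynoecium and ovule genes. Of the late pollen sums, the PRO5 unit, which was within 2-fold, made up 149.7 RPKM in the hybrid and 126 in B. napus. No unit of these 5 lists was at 0 reads in either library. Their part in the differences of the other families was not tested.

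**Figure D5:**
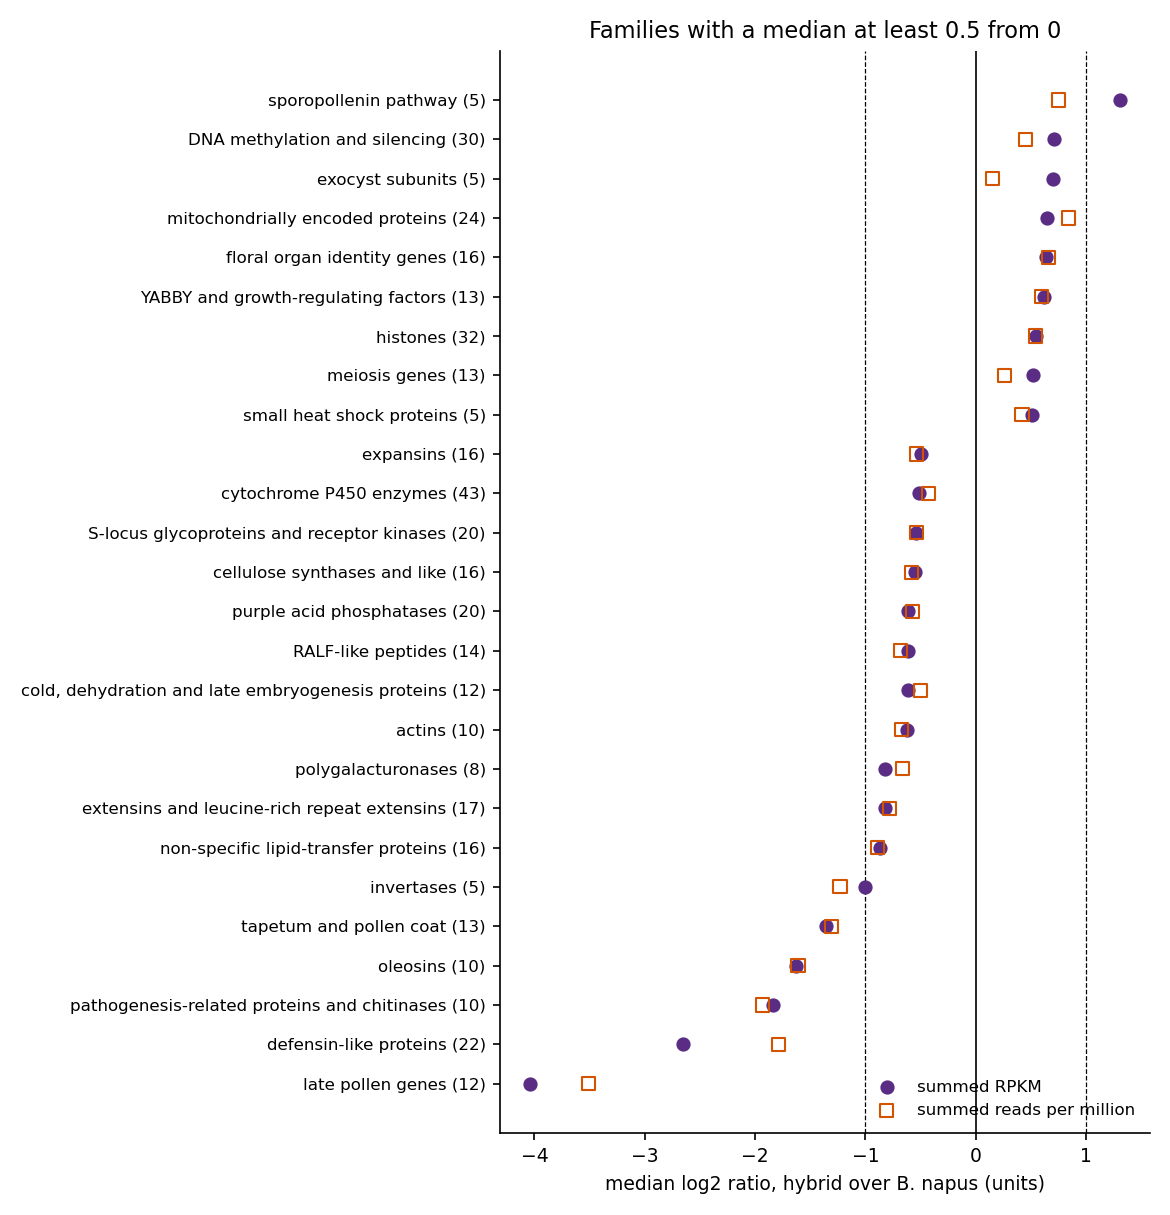
Median log2 ratio of hybrid over B. napus for the 26 families whose median is at least 0.5 from 0, with the number of measured units in brackets; purple circles use summed RPKM and open orange squares summed reads per M. Late pollen genes, defensin-like proteins, pathogenesis-related proteins, oleosins and the pollen coat lie at the lower end on both scales, and sporopollenin genes at the upper end.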

How the data were processed

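RNA-seq of floral buds gave 1 library per group. The authors deposited 1 table with raw read counts and RPKM per assembled sequence and library, and, per its header, alignment scores of the best Nr and Swiss-Prot hits. No source used here names the assembler, the aligner or the read counter. The deposited RPKM values equalled count per kilobase and per M of the column total for 100.0% of entries. Reads and RPKM were summed over sequences that share a Swiss-Prot hit (score ratio at least 0.6), and units of 5 RPKM or more in either library were kept. Log2 ratios used a pseudocount of 1 RPKM, which understates the change of low units. Names are those of the best hit, so a unit need not be an orthologue, and near-identical copies can share reads. Families are text patterns on the product names. Members and lists were chosen with earlier results of these data known, and 3 patterns were corrected after the matched products were seen.

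Text names come from a rule: the 15 highest and 15 lowest ratios at 20 RPKM or more, up to 4 largest changes and the 2 highest levels per family, the 10 highest levels per library, and every unit of the small lists. Outside it, and chosen after their values were seen, are PME3, the grapevine-hit polygalacturonase, AGP9, ADF1, STM of B. oleracea, RGA2, GASA1, rpoA, the second matK and atpA units, both psbB units, COX3, ND4 and mitochondrial RPS3. Depth was 27.1 M and 28.2 M reads. Python 3.11.15, pandas 2.3.3 and SciPy 1.17.1 were used, with edgeR 4.0.16 under R 4.3.3 only for TMM factors on the deposited counts. Counting was tested on simulated data. The alternatives were 11 planned and 3 added after seeing the data (merged names, no organelle-encoded units, Arabidopsis hits only).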

Additional observations from a re-analysis of the deposited data

Results flagged for a closer look

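Outside the units, 9580 assembled sequences of 5 RPKM or more in either library were at least 2-fold apart, a signal in rows that no comparison above uses. Of 20879 such sequences 6391 were higher in the hybrid and 3189 lower, which is 45.9% apart. They are single sequences, not sums over copies, and 76513 of all 93924 sequences outside the units had no Swiss-Prot hit. Units made of a single sequence were also often apart, with 22.6% higher and 23.3% lower of 412. All sequences outside the units held 37.3% of the hybrid reads.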

How the results depend on the processing

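No paired analysis was possible because each group has 1 library, and for the same reason no replicate could be left out. Against 688 higher and 653 lower units, a pseudocount of 5 gave 438 and 392, a minimum of 20 RPKM gave 330 and 329, and a minimum of 1 RPKM gave 1038 higher. Taking the 1 sequence of highest level per unit gave 1440 lower and a median of -0.37. Using only sequences read in both libraries gave 348 higher and a median of -0.15. TMM factors gave 766 higher and 588 lower with a median of 0.08. The minimums and the choice of sequences change which units or sequences enter. The pseudocount of 5 keeps the same 8089 units and shrinks the ratios of low ones, and TMM factors rescale the libraries. The small heat shock median of 0.51 turned to -0.05 at a minimum of 1 RPKM and -0.77 with any Swiss-Prot hit. The meiosis median of 0.52 turned to -0.04 at a minimum of 20 RPKM and -0.09 with the highest sequence. That last value stands beside the median of -0.37 over all units with the highest sequence. AKT6 turned to 0.13 with any hit, H2A7_ARATH to -0.49 and CKS1 to -0.23 with the highest sequence, and AP1 of Sinapis alba to -0.38 with sequences read in both libraries. By summed reads per M without length, AGP9, the Arabidopsis AG unit, GRF5, AGO5 and AGO7 came inside 2-fold, at 0.86, 0.75, 0.93, 0.85 and 0.80.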

Other observations

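The B. carinata library was set beside the plastid values as it stands, with no comparison made. For matK the Sinapis alba entry had 596 RPKM in the B. carinata library, 1679 RPKM in the hybrid library and 12.3 RPKM in the B. napus library. For rpoA the values in that order were 709, 1104 and 11.6 RPKM, and for ndhC they were 143, 374 and 0.501. For rps3 of the plastid, under the Lobularia maritima entry, they were 2.55, 3.20 and 3890 RPKM, for ndhA under its main entry 0.0888, 0.369 and 855, and for rpl2 0.650, 0.641 and 191.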
